A study of Mus musculus with 2 samples.

Results

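The 409 widest Nanog binding intervals of mouse embryonic stem cells (ESCs), each 550 bp or more, were examined against the 8326 narrower intervals of the same peak list. An interval is a stretch of the genome that the peak caller reported as enriched for Nanog. The wide intervals were chosen on their width among the 8735 distinct intervals on chromosomes 1 to 19 and X, of which they made up 4.68%. In the study, chromatin of Bruce-4 ESCs, grown in serum medium with the cytokine LIF, was immunoprecipitated with a rabbit monoclonal antibody against Nanog and sequenced (ChIP-seq). There was 1 immunoprecipitated sample and 1 input sample of the same cells without antibody, and neither had a replicate. The input was not analysed here. The list gives positions alone, so neither the strength of an interval nor the reads behind it can be read from it, no cell type marker can be checked, and no p-value was computed. The 95% intervals below cover counting error only and treat the intervals of the list as independent.

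Nanog is a homeodomain protein that, with Oct4 (encoded by Pou5f1) and Sox2, sustains the self-renewal of pluripotent cells. These factors bind largely at enhancers, often next to Esrrb and Klf4, and Oct4 and Sox2 can bind side by side on a composite DNA element. Their target genes include their own genes and components of the LIF, Nodal and chromatin-modifying pathways.

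Stretches of 200 bases from wide intervals are shown first, because the motif counts further on are read from such sequence. Each is the stretch of its interval with the most motif copies, written 5′ to 3′ on the plus strand of mm10, and is named after the nearest protein-coding gene. Capitals mark copies of 6 motifs on either strand: the Sox word (CCATTGT or CCTTTGT), the octamer of Oct factors (ATGCAAAT), the Nanog core (CCATTA), the Esrrb word (TCAAGGTCA), the Klf words (GCCACACCC, GCCCCACCC, GCCACGCCC or GCCCCGCCC), and the Oct4-Sox2 composite, which is CATTGT, 1 free base and ATGCAAAT with at most 2 mismatches in its 14 fixed letters. A composite can overlap a Sox word or an octamer, and each is then counted under its own name.
Zfp11 (chr5:129632293-129632492): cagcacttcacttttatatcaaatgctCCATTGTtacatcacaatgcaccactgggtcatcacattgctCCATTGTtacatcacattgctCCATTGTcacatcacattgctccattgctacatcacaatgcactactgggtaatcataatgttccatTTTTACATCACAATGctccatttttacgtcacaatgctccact
Plekhb2 (chr1:35115678-35115877): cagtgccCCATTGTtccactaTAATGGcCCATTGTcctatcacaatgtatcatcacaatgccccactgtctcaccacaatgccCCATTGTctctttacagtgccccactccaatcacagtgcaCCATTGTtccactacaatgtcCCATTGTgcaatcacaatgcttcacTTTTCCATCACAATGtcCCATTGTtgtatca
Lifr (chr15:7115785-7115984): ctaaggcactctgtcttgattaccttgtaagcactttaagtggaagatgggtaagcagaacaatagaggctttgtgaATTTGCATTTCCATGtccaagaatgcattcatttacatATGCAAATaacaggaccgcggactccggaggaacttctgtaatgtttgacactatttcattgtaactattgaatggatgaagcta
Esrrb (chr12:86501593-86501792): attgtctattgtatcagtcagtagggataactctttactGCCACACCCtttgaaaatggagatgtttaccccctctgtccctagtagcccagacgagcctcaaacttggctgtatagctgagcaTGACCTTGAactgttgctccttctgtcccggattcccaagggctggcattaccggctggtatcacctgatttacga
Immp2l (chr12:40837015-40837214): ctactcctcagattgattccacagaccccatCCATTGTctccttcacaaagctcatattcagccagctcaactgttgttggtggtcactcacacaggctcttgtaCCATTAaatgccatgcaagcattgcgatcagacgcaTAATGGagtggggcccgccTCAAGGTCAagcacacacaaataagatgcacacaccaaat
Lefty1 (chr1:180924820-180925019): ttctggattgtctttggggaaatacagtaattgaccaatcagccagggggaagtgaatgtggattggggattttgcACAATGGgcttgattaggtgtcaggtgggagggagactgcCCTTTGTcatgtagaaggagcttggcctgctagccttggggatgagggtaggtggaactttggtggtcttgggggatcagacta
Klf4 (chr4:55463985-55464184): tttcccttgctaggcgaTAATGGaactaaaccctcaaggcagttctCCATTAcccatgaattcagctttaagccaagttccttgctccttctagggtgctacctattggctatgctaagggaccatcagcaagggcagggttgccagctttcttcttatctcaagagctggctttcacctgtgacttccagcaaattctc
Sox2 (chr3:34745241-34745440): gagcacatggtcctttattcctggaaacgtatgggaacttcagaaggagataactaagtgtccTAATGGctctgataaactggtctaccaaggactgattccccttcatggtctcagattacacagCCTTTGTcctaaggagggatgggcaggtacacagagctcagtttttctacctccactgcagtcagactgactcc
Pou5f1 (chr17:35504982-35505181): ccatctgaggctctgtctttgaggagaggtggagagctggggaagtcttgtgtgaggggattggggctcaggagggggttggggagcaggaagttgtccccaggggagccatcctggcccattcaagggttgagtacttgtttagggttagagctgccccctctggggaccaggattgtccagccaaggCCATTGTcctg
Jarid2 (chr13:44705605-44705804): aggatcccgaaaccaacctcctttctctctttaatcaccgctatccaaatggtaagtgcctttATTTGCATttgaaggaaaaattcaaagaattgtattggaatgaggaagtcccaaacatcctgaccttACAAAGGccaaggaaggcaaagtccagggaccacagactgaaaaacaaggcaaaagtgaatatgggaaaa
The first stretch comes from the widest interval of the list and the second from the one with the most copies, and in both the Sox word returned at short distances. The Immp2l stretch held 4 copies of 3 different motifs, the Esrrb stretch paired a Klf with an Esrrb word, and the Lifr stretch held a composite that includes an octamer, with a second octamer close by. The Pou5f1 stretch held 1 Sox copy.

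The widths are a description, since they chose the members. Wide intervals had a median width of 622 bp, and their quartiles were 576 and 686 bp, beside a median of 313.5 bp for the narrower ones. They took up 265 kb, which is 8.81% of all bases in intervals. Of the list, 247 intervals reached 600 bp, 84 reached 700 bp, 30 reached 800 bp and 6 reached 1000 bp. The limit fell inside a continuous range: the 10 intervals just inside it were 550 to 552 bp wide and the 10 just outside 545 to 549 bp.

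Wide intervals were also the ones that the list named more than 1 time. Of the 409, 313 stood on 1 line, 95 on 2 identical lines and 1 on 3 lines, so 23.5% were repeated (95% interval 19.4 to 27.9%). Among narrower intervals 26 of 8326 were repeated, 0.312% (0.204 to 0.457%). Seen from the repeated lines, 96 of the 122 intervals on more than 1 line were wide (78.7%). The share grew with width, from 14.8% (11.1 to 19.1%) at 550 to 699 bp to 57.1% (45.9 to 67.9%) at 701 to 1256 bp. The list does not say why a line returns, and each distinct interval was counted 1 time throughout. Repeated wide intervals were wider than the others, with medians of 700.5 bp (681 to 741 bp) and 607 bp (591 to 616 bp).

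**Figure D1:**
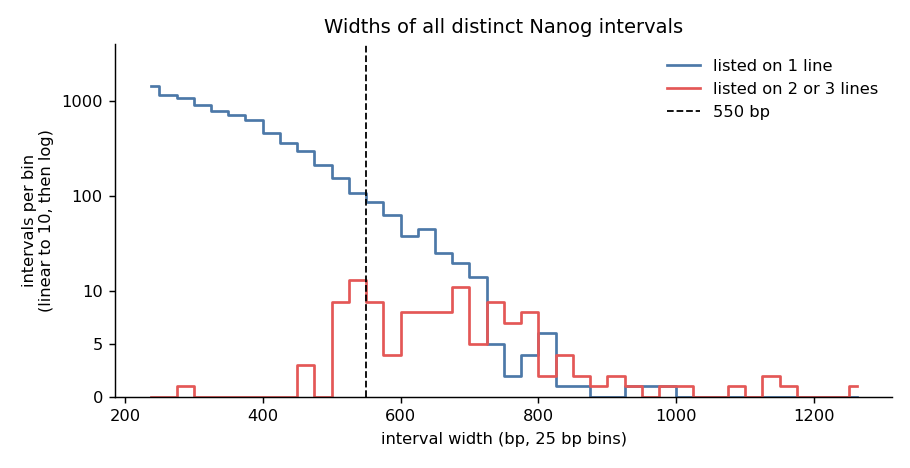
Number of distinct Nanog intervals per 25 bp bin of width, with intervals on 1 line and on 2 or 3 lines of the list drawn apart, and the limit of 550 bp dashed. The vertical axis is linear to 10 intervals and logarithmic above. Intervals on 1 line thin out steadily with width, while those on 2 or 3 lines lie mostly above the limit and reach 1256 bp.

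The 10 widest intervals lay between genes, except for those in Cdyl2 and Chn2. The widest, 1256 bp at chr5:129632211-129633466, was intergenic and 37.3 kb from the transcription start site (TSS) of Zfp11, a zinc finger gene. The next was 1159 bp wide and 7.88 kb upstream of Cd38, which encodes a NAD-consuming surface enzyme. The third, of 1130 bp at chr4:99635926-99637055, was 19.8 kb upstream of Foxd3, a forkhead factor needed for the pluripotent epiblast. An interval of 1126 bp lay in an intron of Cdyl2, a chromodomain gene, 58.9 kb from its start. One of 1098 bp was 59.4 kb upstream of Serp2, a gene of the endoplasmic reticulum stress response. These 5 were all listed on 2 lines.

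The other 5 of the 10 were between 949 and 1010 bp wide. An interval of 1010 bp stood 4.11 kb upstream of D630039A03Rik. An interval of 982 bp at chr1:180888418-180889399 stood 4.20 kb upstream of Lefty2, a secreted inhibitor of Nodal. One of 980 bp was in an intron of Chn2, which encodes a GTPase-activating protein for Rac, and one of 965 bp was 778 kb from Kcnj2, a potassium channel gene. The last, of 949 bp at chr1:35115233-35116181, was 266 kb from Plekhb2. Only the Lefty2 and D630039A03Rik intervals among these 10 were within 5 kb of a TSS.

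The wide intervals differed widely in their motif copies. The Plekhb2 interval held 12 Sox words, 2 Nanog cores and 1 composite, 15 copies in all, which was the most of any wide interval. The widest interval followed the same plan on a smaller scale, with 3 Sox words and 2 composites. In the Plekhb2 interval 7 of the 11 steps from one Sox word to the next were exactly 21 or 42 bp, and in the Zfp11 interval both steps were. Steps of 21 or 42 bp were chosen for a count after these values were seen, and they occurred in 3 of the 80 wide intervals with 2 or more Sox words and in 11 of the 383 such narrower intervals. Both intervals also aligned with themselves at a shift, 37 times in the Zfp11 interval and 2 times in the Plekhb2 interval, so each carries internal copies of its own sequence. Such internal copies were present in 7 wide (1.71%, 0.691 to 3.49%) and 110 narrower intervals (1.32%, 1.09 to 1.59%).

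Other intervals with many copies did not have this layout. One of 908 bp, 59.4 kb from the glutamate receptor gene Grin2b, held 3 Nanog cores, 1 Sox word, 1 octamer and 1 composite. One of 671 bp, 187 kb from Immp2l, held 3 Nanog cores, 2 Sox words and 1 Esrrb word. Width did not assure copies: the intervals of 1159 bp at Cd38, 1130 bp at Foxd3 and 1126 bp at Cdyl2 each held 1 Nanog core and no other of the 6 motifs.

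Over all members, 207 of the 409 wide intervals held a Sox word (50.6%, 45.7 to 55.6%), beside 2252 of 8326 narrower ones (27.0%, 26.1 to 28.0%). Wide intervals hold more bases, so the same count was made per kb. Sox words came to 1.20 copies per kb in wide and 0.990 in narrower intervals, a ratio of 1.22 (1.06 to 1.39). In the central 200 bp, the same length in both groups, 26.9% of wide intervals (22.7 to 31.5%) and 21.5% of narrower ones (20.6 to 22.4%) held a Sox word, a ratio of 1.25 (1.06 to 1.48). With a limit of 500 bp in place of 550 bp the ratio per kb was 1.10 (0.979 to 1.24), an interval that includes 1.

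The Klf word differed in the opposite direction. It came to 0.207 copies per kb in wide and 0.337 in narrower intervals, a ratio of 0.616 (0.449 to 0.845). Leaving out intervals within 5 kb of a TSS gave nearly the same ratio, 0.613 (0.441 to 0.853), whereas with a limit of 500 bp it was 0.785 (0.587 to 1.05) and included 1. In the central 200 bp, 17 wide intervals (4.16%, 2.44 to 6.57%) and 533 narrower ones (6.40%, 5.89 to 6.95%) held it, and this ratio of 0.649 (0.405 to 1.04) included 1. The words are rich in G and C, and GC content was slightly lower in wide than in narrower intervals, with medians of 46.8% (46.4 to 47.4%) and 47.7% (47.6 to 47.9%). The part of base composition in the ratio was not tested.

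For the other motifs the wide-to-narrow ratio of copies per kb had an interval that included 1. The composite came to 0.0830 copies per kb in wide and 0.112 in narrower intervals (ratio 0.739, 0.468 to 1.17). The octamer gave a ratio of 0.931 (0.685 to 1.27), the Nanog core 1.03 (0.868 to 1.23) and the Esrrb word 1.31 (0.906 to 1.89). The Nanog core with its flanking bases, GCCATTAA, gave 1.35 (0.858 to 2.11) over whole intervals, but in the central 200 bp it stood in 12 wide (2.93%) and 99 narrower intervals (1.19%), a ratio of 2.47 (1.37 to 4.46). Of the words not among the 6, the Myc E-box CACGTG had a ratio of 0.696 (0.457 to 1.06), the AP-1 words TGACTCA and TGAGTCA 0.841 (0.645 to 1.10) and the Tead word GGAATG 0.941 (0.820 to 1.08). In the central 200 bp the E-box stood in 3 wide (0.733%) and 192 narrower intervals (2.31%), a ratio of 0.318 (0.102 to 0.991). In all, 10 motifs were compared, and the intervals were not widened for that number.

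Against their own surroundings, wide intervals were richer in every one of the 6 motifs. The control was a window of the same width 1 kb beyond each edge, 806 windows in all after those that overlapped another interval were left out. Per kb, the composite was 7.23 times as frequent in wide intervals as in these flanks (2.91 to 17.9), the Esrrb word 4.73 times (2.58 to 8.68), the Klf words 3.19 times (2.01 to 5.05) and the Sox word 2.88 times (2.39 to 3.49). The octamer was 2.22 times as frequent (1.45 to 3.42) and the Nanog core, the shortest of the 6, 1.45 times (1.17 to 1.79). A Sox word stood in 22.3% of the flanking windows and a Nanog core in 24.3%, so copies of these short words are common outside intervals too. Of the words not among the 6, the Tead word was 1.30 times as frequent (1.10 to 1.54) and the AP-1 words 1.27 times (0.910 to 1.77). The Myc E-box was the exception in direction, with a ratio of 0.639 (0.402 to 1.02). The flanks were lower in GC, with a median of 44.3%. For narrower intervals the ratios to their own flanks were 7.41 for the composite (5.81 to 9.45), 4.56 for Klf (3.96 to 5.23) and 2.72 for Sox (2.56 to 2.89).

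**Figure D2:**
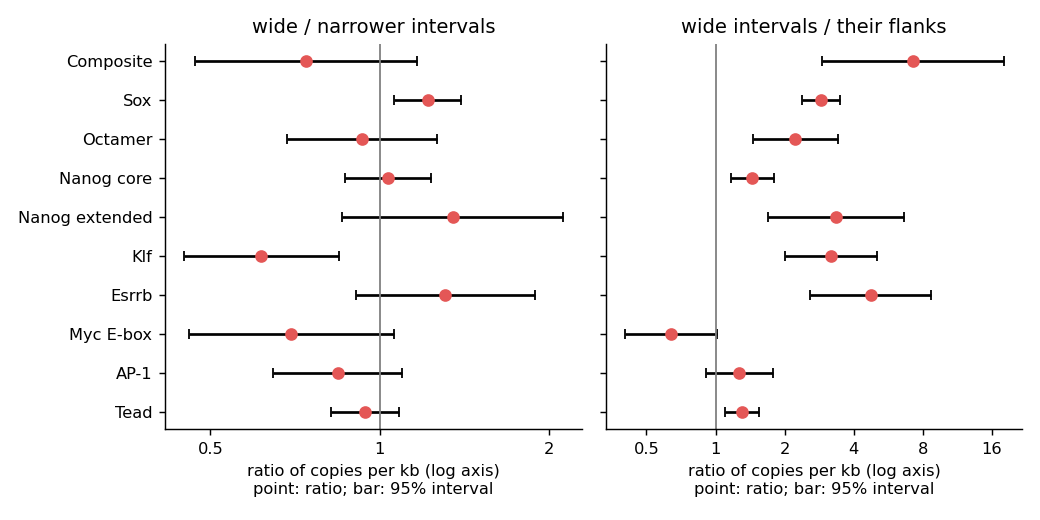
Ratio of motif copies per kb in wide against narrower intervals (left) and in wide intervals against windows of the same width 1 kb beyond their edges (right), on logarithmic axes. Points are ratios and bars 95% intervals. On the left the bars for Sox lie above 1 and those for Klf below 1. On the right the bars for the 6 key motifs lie above 1, led by the composite at 7.23. Those for GCCATTAA and the Tead word lie above 1 there as well.

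Copies were not spread evenly along the wide intervals. Of 319 Sox words, 145 were in the central part of the interval when it was divided into 3 equal parts, 1.64 copies per kb against 0.984 in the outer parts. In narrower intervals the corresponding values were 1.49 and 0.741 copies per kb. The composite was 2.89 times as dense in the central part of wide intervals as outside it (13 and 9 copies). This ratio was 1.14 for Klf words (20 and 35 copies), 1.14 for octamers (16 and 28) and 0.880 for Esrrb words (11 and 25). The central part of wide intervals held 36.4% of Klf words (23.8 to 50.4%) and 36.4% of octamers (22.4 to 52.2%). It held 30.6% of Esrrb words (16.3 to 48.1%). In narrower intervals these shares were 42.1%, 48.1% and 45.3%, each inside the interval given for wide ones. So few copies cannot tell an even spread from such a central excess.

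By distance from the centre, the Sox word stayed frequent farther out in wide intervals. Within 50 bp of the centre it came to 1.56 copies per kb in wide and 1.48 in narrower intervals. Between 50 and 150 bp the values were 1.49 and 0.848, and between 150 and 300 bp 0.929 and 0.401, by which distance most narrower intervals have ended. Beyond 500 bp they were 0.340 and 0.392. Composites in wide intervals came to 0.0489 copies per kb within 50 bp (2 copies) and 0.159 between 50 and 150 bp (13 copies). These counts are too low to place their peak within the central part. Where a wide interval had 2 or more Sox words, the first and last were a median of 175 bp apart (124 to 245 bp), beside 78 bp (72 to 87 bp) in narrower intervals. This distance cannot exceed the width, on which the groups were chosen, so the difference in medians cannot be told apart from that choice.

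**Figure D3:**
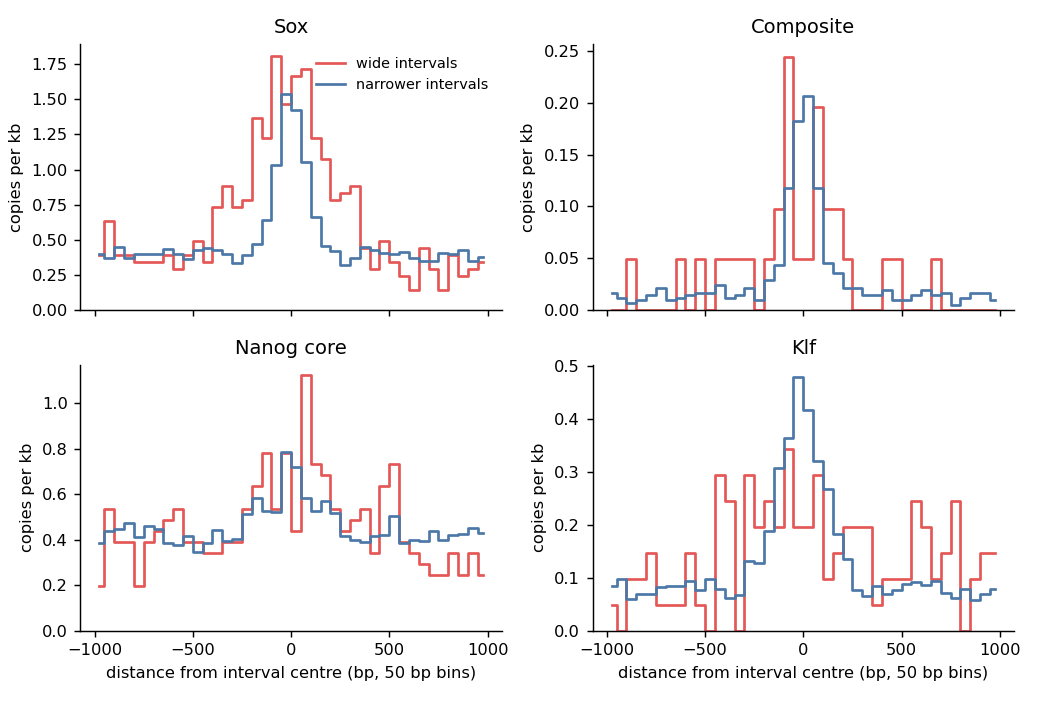
Copies per kb of the Sox word, the Oct4-Sox2 composite, the Nanog core and the Klf word by distance from the interval centre, in 50 bp bins to 1000 bp on each side, for wide and narrower intervals. The Sox signal of narrower intervals is a sharp central peak, and that of wide intervals is as high but broader. The wide lines rest on 409 intervals and are noisy for the rarer composite and Klf words.

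Wide intervals combined more motifs than narrower ones over their whole length. Of the 409, 124 held 2 or more of the 6 motifs (30.3%, 25.9 to 35.0%) and 30 held 3 or more (7.33%), beside 12.4% (11.7 to 13.1%) and 1.47% of narrower intervals. In the central 200 bp the shares with 2 or more were 6.60% (4.40 to 9.46%) and 7.37% (6.82 to 7.96%). At the other end, 96 wide intervals (23.5%, 19.4 to 27.9%) held none of the 6 motifs, beside 48.2% of narrower ones, and in the central 200 bp these shares were 56.7% and 59.1%. Copy numbers were low throughout: 127 wide intervals held 1 Sox word, 62 held 2, 13 held 3 and 5 held more.

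The composite occurred in 20 wide intervals (4.89%, 3.01 to 7.45%), in 22 copies. Of these, 5 are printed on the strand that reads the Sox side first, with the composite in capitals between 10 bases on each side, to show how far they depart from the consensus. The coordinates are those of the composite itself.
Lifr (chr15:7115862-7115876, minus strand): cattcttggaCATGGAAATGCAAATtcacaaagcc
Six4 (chr12:73086073-73086087, plus strand): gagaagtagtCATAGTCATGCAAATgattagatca
Zfp11 (chr5:129633059-129633073, minus strand): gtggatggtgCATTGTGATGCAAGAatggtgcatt
Plekhb2 (chr1:35115847-35115861, minus strand): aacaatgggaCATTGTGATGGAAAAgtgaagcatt
Il12a (chr3:68565101-68565115, minus strand): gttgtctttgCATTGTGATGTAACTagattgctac
The Six4 copy has 1 mismatch and the other 4 have 2. The Lifr and Six4 copies carry an intact octamer, whereas the Zfp11, Plekhb2 and Il12a copies carry an intact Sox side and depart from the consensus in the octamer.

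Wide intervals were seldom at promoters. Within 1 kb of a protein-coding TSS, taken as the 5′ end of the gene, were 9 of them (2.20%, 1.01 to 4.14%) and 465 narrower intervals (5.58%, 5.10 to 6.10%), a ratio of 0.394 (0.205 to 0.756). None of the 84 intervals of 701 bp or more was so close, which allows a share of up to 3.57% (3 counts). Within 5 kb the shares were 12.2% (9.21 to 15.8%) and 14.8% (14 to 15.6%), and the ratio of 0.827 (0.635 to 1.08) included 1. The median distance to the nearest coding TSS was 36.7 kb (28.3 to 42.6 kb) for wide and 32.6 kb (31.1 to 34.1 kb) for narrower intervals. Wide intervals lay 5 to 50 kb away in 48.7% of cases and 50 to 500 kb away in 36.4%.

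The 9 promoter intervals, named here after their values were seen, were at Gatad2a, Rnf44, Abhd2, Cd55, Neurog1, Vamp9, Qtrt2, Cst3 and Rbpj, and ranged from 555 to 691 bp. Gatad2a encodes a subunit of the NuRD chromatin-remodelling complex and Rbpj the DNA-binding partner of Notch. Those at Gatad2a, Rnf44, Abhd2 and Cd55 were 0.0800 to 0.162 kb upstream of the start and held 2 to 4 Klf words, and their GC content was 58.0 to 73.6%. The others held no Klf word. Among these, the intervals at Neurog1, 0.058 kb upstream, and Vamp9, 0.159 kb downstream, were also rich in GC, at 69.9% and 62.4%. The Rbpj interval, 0.993 kb downstream of the start, held 1 Sox word and had a GC content of 46.3%.

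By annotation at the centre base, the shares of wide and narrower intervals did not separate beyond their 95% intervals. Introns held 49.1% of wide (44.2 to 54.1%) and 47.4% of narrower intervals (46.3 to 48.5%), and 46.0% (41.1 to 50.9%) and 46.3% (45.2 to 47.4%) lay between genes. Coding exons held 3 wide intervals and untranslated regions 7. The centre was in soft-masked sequence, the interspersed and simple repeats written in lower case in the reference, in 22.7% of wide (18.8 to 27.1%) and 20.2% of narrower intervals (19.4 to 21.1%). The share of intervals that were wide ran from 3.05% on chromosome 13 (1.63 to 5.16%) to 5.91% on chromosome 8 (3.93 to 8.48%), and the 95% intervals of these shares overlap.

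**Figure D4:**
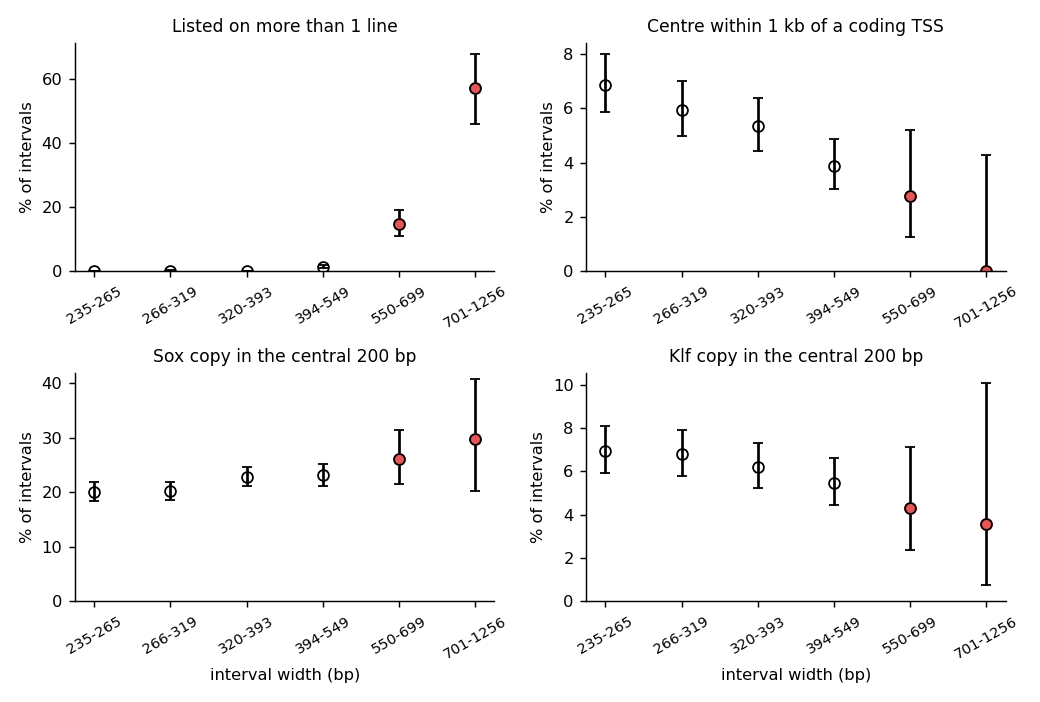
Share of intervals on more than 1 line, centred within 1 kb of a coding TSS, with a Sox word in the central 200 bp and with a Klf word there, by class of width. Points are shares with 95% Clopper-Pearson intervals, and filled points are the 2 classes of 550 bp or more. The share within 1 kb of a TSS falls from 6.87% in the narrowest class to 2.77% and 0%, and the Sox share lies between 20.1% and 29.8%.

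A part of the wide intervals was made of sequence that recurs in the list. Alignment of every interval with every other showed that 76 wide intervals (18.6%, 14.9 to 22.7%) shared at least 100 bp at 80% identity or more with another interval, beside 15.6% of narrower ones (14.8 to 16.4%). Among the wide intervals themselves, the largest group of related sequences had 28 members on 15 chromosomes, and others had 12, 4, 4 and 2 members. The 28 were 552 to 823 bp wide, a median of 72.6% of their bases was soft-masked, and aligned pairs had a median identity of 87.0% over a median of 353 bp. A Sox word stood in 19 of the 28 and a Tead word in 20, and none held a composite, octamer, Klf or Esrrb word. Over all 76 related wide intervals, 43 held a Sox word, 3 a composite, 4 an octamer, 4 a Klf word and 5 an Esrrb word. Of the 333 wide intervals without a related interval, 164 held a Sox word, 17 a composite, 38 an octamer, 41 a Klf word and 27 an Esrrb word. These words other than Sox are rare, so their absence from a group of 28 says little.

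Stretches from 6 of the 28 show a Sox word in a setting that a part of the group shares. Each is read in the direction of the Sox word, which is in capitals between 25 bases on each side, and is named after its nearest protein-coding gene.
Msc (chr1:14743311-14743367, plus strand): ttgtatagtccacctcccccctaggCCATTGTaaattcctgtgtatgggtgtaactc
Car8 (chr4:8154443-8154499, minus strand): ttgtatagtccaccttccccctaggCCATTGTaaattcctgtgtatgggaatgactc
Tom1 (chr8:75026308-75026364, plus strand): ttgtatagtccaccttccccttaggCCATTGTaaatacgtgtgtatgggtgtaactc
Fancm (chr12:65115271-65115327, plus strand): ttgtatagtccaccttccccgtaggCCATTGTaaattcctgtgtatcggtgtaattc
Ahr (chr12:35642644-35642700, plus strand): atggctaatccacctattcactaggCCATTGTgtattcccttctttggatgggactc
Il7 (chr3:7682911-7682967, minus strand): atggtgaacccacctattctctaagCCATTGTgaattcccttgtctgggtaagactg
The Car8, Tom1 and Fancm copies matched the Msc copy at 53 of 57 bases, the Ahr copy at 40 and the Il7 copy at 38. These 6 are among the better matches. Of 30 Sox copies compared in the group, 9 matched the Msc copy at 70% or more of bases, itself included. The lowest match was at 14 of 57 bases, so many Sox words of the group stood in other sequence. The interval nearest to Sox2 also belonged to the 28 by another stretch of its sequence, and 23.6% of its bases were soft-masked.

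The nearest protein-coding genes of the wide intervals included central regulators of the ESC state. Over all genes, 5353 protein-coding genes were nearest to an interval within 1000 kb, and 387 of them (7.23%) were nearest to a wide one. Of the 182 genes in 11 lists of pathways and markers, 96 were nearest to an interval and 18 of these to a wide one (18.8%). Genes with more intervals had more chances: a wide interval was present at 4.32% of the genes with 1 interval (3.67 to 5.05%), at 8.36% with 2, at 15.4% with 3 and at 24.1% with 4 or more (19.5 to 29.2%). List genes were rich in intervals. A wide one was present at 3 of the 24 list genes with 1 interval and at 2 of the 34 with 2. With 3 intervals it was present at 2 of 12 list genes, and with 4 or more at 11 of 26. Per interval, 20 of 292 intervals at list genes were wide (6.85%), beside 405 of 8644 at all genes (4.69%). The lists and members were chosen with earlier results of these data known, so these counts are descriptive.

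Among 24 core and naive pluripotency genes, 20 were nearest to an interval and 7 to a wide one, and 7 of their 81 intervals were wide (8.64%). At Pou5f1, which encodes Oct4, the wide interval measured 577 bp at chr17:35504707-35505283, was 1.02 kb upstream of the start and held 1 Sox word and 1 Nanog core. At Sox2, the gene of Oct4's partner, 1 of 8 intervals was wide, 559 bp at chr3:34745177-34745735 and 95.1 kb downstream of the start. At Klf4, a zinc finger factor of naive pluripotency, it was 819 bp at chr4:55463948-55464766, 68.1 kb downstream, with 2 Sox words and 2 Nanog cores. All 3 genes had narrower intervals as well, and in the plot of distances their wide intervals lay on either side of the start.

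The other 4 pluripotency genes had wide intervals of 613 to 1130 bp. Esrrb, an orphan nuclear receptor that sustains self-renewal, had an interval of 686 bp in its own intron at chr12:86501553-86502238, 141 kb from the start, which held 2 Esrrb words and 1 Klf word. Prdm14, a repressor that guards naive pluripotency, had one of 613 bp 42.2 kb downstream, with 1 Sox word. Foxd3 had the interval of 1130 bp described above. Mycn, a proto-oncogene expressed in ESCs, had one of 908 bp 153 kb downstream, with 2 Nanog cores, on 2 lines.

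Of 22 Nodal, TGF-beta and BMP genes, 12 were nearest to an interval and 4 to a wide one. Nodal itself, the ligand, had 1 interval, which was wide at 586 bp and 1.94 kb upstream of the start, and held 1 Klf word. Its inhibitors Lefty1 and Lefty2, neighbours on chromosome 1, each had 1 interval, and both were wide. The Lefty1 interval measured 586 bp, 10.2 kb upstream, with 2 Sox words, and the Lefty2 interval 982 bp, with 2 Klf words and no Sox word. At Id2, a BMP target and inhibitor of helix-loop-helix factors, the wide interval measured 570 bp, 47.7 kb upstream, and held none of the 6 motifs. Intervals of 550 bp or more thus stood at the ligand and at both of its Lefty inhibitors, with no narrower one assigned to the same 3 genes.

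In the LIF pathway, 1 of 7 genes with an interval had a wide one. This was Lifr, the LIF receptor, with 2 wide intervals among 4. One of 633 bp was 8.55 kb upstream with 1 Sox word and 1 Nanog core, and one of 843 bp was in an intron 25.1 kb downstream with 1 composite and 2 octamers. Of 14 Polycomb and chromatin genes with an interval, 3 had a wide one: Jarid2 and Rybp, subunits of Polycomb complexes, and Tet2, which oxidises methylated DNA. The Tet2 interval measured 872 bp in an intron, 20.3 kb from the start, with 2 Sox words. Rybp had 2 wide intervals among 12, one of 572 bp, 246 kb downstream with 1 Nanog core, and one of 789 bp, 176 kb upstream. The latter held none of the 6 motifs and shared sequence with another interval. It also aligned with itself at a shift 10 times, over 780 of its 789 bp. Jarid2 had 1 wide interval among 10, of 612 bp and 23.9 kb upstream, with 1 Sox word and 1 octamer.

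Of the 8 Wnt pathway genes with an interval, Sp5, a Wnt target, had a wide one, of 567 bp inside an intron of Myo3b, 196 kb from the Sp5 start. In the list of formative and primed markers, 8 genes had an interval. Of these, Otx2, a homeobox gene of the primed epiblast, had a wide one of 617 bp, 27.4 kb upstream with 2 Sox words. Myc, placed in the same list, had one of 574 bp, 27.4 kb downstream with none of the 6 motifs. No wide interval was nearest to a gene of the other lists: 0 of 11 FGF and ERK genes with an interval, 0 of 7 endoderm and trophectoderm regulators, 0 of 6 ribosomal protein genes, 0 of 3 genes of the reprogramming network studied by the authors and 0 of 3 mesenchymal regulators. With so few genes, and 7.23% of all genes with an interval having a wide one, a count of 0 says little for any of these lists.

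**Figure D5:**
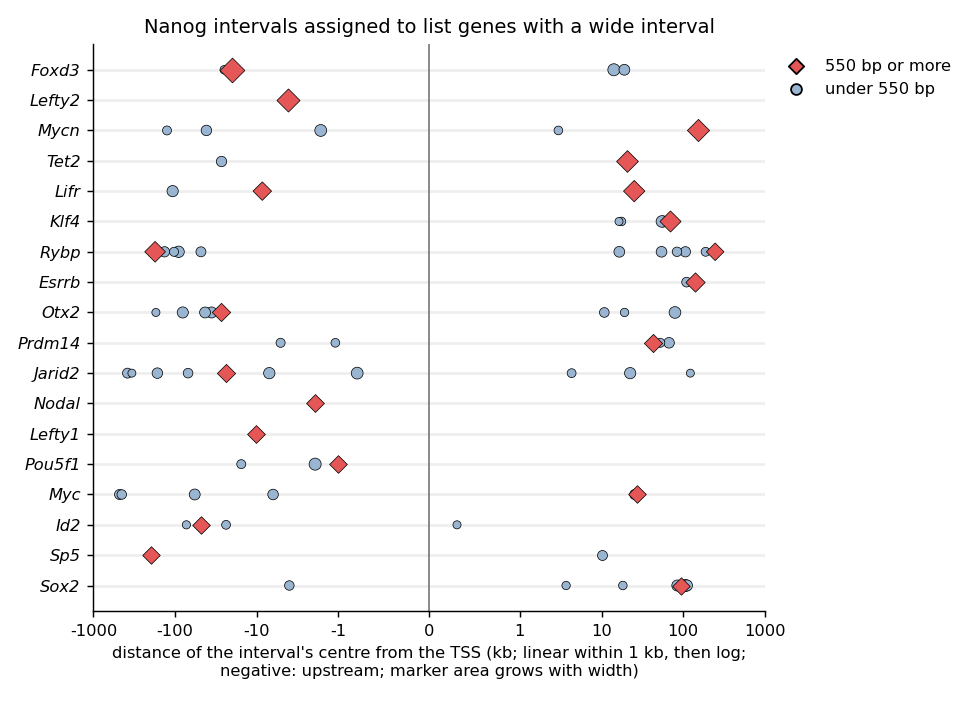
Distance from the start of the gene to every Nanog interval assigned to the 18 list genes with a wide interval, in kb, linear within 1 kb and logarithmic beyond, with upstream negative. Diamonds are intervals of 550 bp or more and circles narrower ones, and marker area grows with width. Nodal, Lefty1 and Lefty2 have a wide interval and no other, while Rybp, Jarid2, Otx2 and Sox2 have a wide interval among many narrower ones.

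No protein-coding gene was nearest to 3 or more wide intervals, and 18 genes were nearest to 2. Among the 18, Lifr and Rybp belong to the lists. The others, named after their values were seen, include Med13l, a Mediator subunit, Tle3, a Groucho-type corepressor, Jmjd1c, a Jumonji-domain gene, Irs2, an adaptor of the insulin receptor, and the homeobox gene Evx1.

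Wide intervals were slightly more often part of a cluster. Another interval lay within 12.5 kb, edge to edge, the distance commonly used to stitch enhancers, of 116 wide intervals (28.4%, 24 to 33%) and 1989 narrower ones (23.9%, 23.0 to 24.8%), a ratio of 1.19 (1.01 to 1.39). The ratio was 1.11 at 5 kb (0.882 to 1.41) and 1.11 at 25 kb (0.986 to 1.26), and both of these include 1. At 2 kb it was on the other side of 1, at 0.843 (0.59 to 1.21), with shares of 6.85% of wide and 8.12% of narrower intervals. The nearest other interval was a median of 40.6 kb away (35.2 to 49.4 kb) for wide and 49.2 kb (46.2 to 51.4 kb) for narrower intervals. Of 6630 intervals that stood alone, 4.42% were wide (3.94 to 4.94%), beside 5.51% (4.57 to 6.57%) of the 2105 in stretches of 2 or more and 9.38% (4.94 to 15.8%) of the 128 in stretches of 4 or 5.

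Wide intervals rarely clustered with each other. Stretches with 2 wide intervals numbered 7, and none had 3. The 3 with the widest members were upstream of Serp2, at Adrb3 and upstream of Med13l. The Serp2 stretch ran for 14.8 kb at chr14:76615738-76630507 and held intervals of 1098, 309 and 555 bp. The Adrb3 stretch, named for the beta-3 adrenergic receptor gene, ran for 26.8 kb and held 4 intervals of 569, 870, 323 and 369 bp. The Med13l stretch ran for 12.2 kb, 114 to 125.5 kb upstream of the gene, and held 5 intervals, of which those of 755 and 567 bp were wide.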

How the data were processed

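The authors deposited the Nanog peaks as chromosome, start and end, positions in base pairs on mm10 and no measured value. Per the labels, FastQC, Bowtie2, SAMtools, bedtools and MACS2 were used, and the labels give no versions. The study subtracted the input from its signal tracks. The calling threshold, and whether the peak caller used the input, are not given in the sources used here. The study states how many reads were sequenced, but the list does not give the number left after filtering or the reads behind an interval, so no precision was derived from depth. The members, gene lists and motifs were chosen with earlier results of these data known.

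Repeated lines were collapsed, 2 scaffold intervals were left out, and coordinates were written 1-based. Sequence came from GRCm38.p6 (mm10) and annotation from GENCODE vM21. The nearest gene was the protein-coding gene with the nearest TSS within 1000 kb of the centre. Motifs were matched as exact words on both strands, except the composite. Related intervals were found with blastn 2.17.0 (E-value 1e-10, at least 100 bp at 80% identity). Shares carry exact Clopper-Pearson intervals, medians order-statistic intervals and ratios intervals on the log scale, whose variance for copies per kb was taken over intervals (numpy 2.4.6, scipy 1.17.1). With 1 library no test was run. Functions were tested on simulated data. Genes and intervals were named by rule: the 10 widest, those with the most motif copies, list genes, genes with 3 or more wide intervals and the 3 richest stretches; 1 interval that the rule names is not reported here. Other width limits, windows, flanks, distances, annotations and comparison groups were tried, and, after seeing the data, leaving out related, repeated, promoter or internally repeated intervals.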

Additional observations from a re-analysis of the deposited data

How the results depend on the processing

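Of the 158 alternative values counted, none reversed a ratio whose interval excluded 1. Among them, 136 stayed inside the 95% interval of the reported value, or within 1.5 times a reported count. Not among the 158 were 2 ratios that did fall below 1. The neighbour ratio was 0.843 at 2 kb. The ratio of shares with 2 or more motifs was 2.44 over whole intervals and 0.895 in the central 200 bp. Both values below 1 had intervals that include 1. By construction, other width limits changed the members: 694 intervals were 500 bp or more, 247 were 600 bp or more and 84 were 700 bp or more. Repeated lines then made up 17.0%, 33.6% and 57.1%, and at 600 and 700 bp the list genes with a wide interval numbered 11 and 7. At 700 bp the intron share was 56.0%, the share with 2 or more motifs 40.5%, the ratio to narrower intervals 1.40 for Sox and 1.25 for the Nanog core, and the ratio of Esrrb words to flanks 12.9, with an interval of 2.94 to 56.2. Protein-coding annotation alone put 42.5% of centres in introns and 54.5% between genes, and all annotated genes in place of coding ones left 7 list genes. In the central 200 bp the share with 2 or more motifs was 6.60%, median GC 46%, and the Esrrb ratio 0.810, below 1 where the whole intervals gave a value above 1, both with intervals that include 1. In 400 bp windows, which reach beyond narrower intervals, the Sox ratio was 1.59. With 1 mismatch the composite ratio was 0.398, with an interval of 0.0541 to 2.93. Leaving out related intervals lowered the share centred in soft-masked sequence to 12.3%. Where construction does not show it, the cause was not tested. The intervals of the Sox and Klf ratios include 1 at 500 bp, that of Klf also in 200 bp windows, and that of the neighbour ratio at every other width limit and distance tried, against intervals from the median width and without repeated lines. No paired analysis of samples was possible because 1 sample was analysed. The 95% intervals of the flank ratios treat intervals and their own flanks as independent and do not use their pairing.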
